A study of Mus musculus with 27 samples.

Results

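Mageb16, Xlr3a and Pnma5, 3 X-linked genes of multigene families known from the germline, were examined across mouse embryonic stem (ES) cells in which the long noncoding RNA Xist can be switched on. They were chosen by name for the early fall of their allelic ratio at 3 h of Xist induction in parental cells, so that fall is described here and not tested. All 3 are among the 270 X-linked genes of a table of 17 libraries on the SPEN lines, and Mageb16 and Pnma5 are among the 254 genes of a table of 10 libraries on the CIZ1 lines.

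Xist coats the X chromosome that transcribes it and recruits repressors that silence most genes in cis. SPEN binds Xist RNA and is known to be central to this silencing. Its SPOC domain contacts corepressors. CIZ1, a protein of the nuclear matrix, is known to hold Xist in place. Mageb16 belongs to the MAGE family, whose members share a domain known to bind ubiquitin ligases and many of which are transcribed in testis. Xlr3a belongs to the Xlr family, relatives of the synaptonemal complex protein SYCP3 that lie in tandem copies on the X. Pnma5 belongs to the PNMA family, which derives from the gag gene of a retrotransposon.

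The cells were female ES cells of a 129S X Cast cross, and every group carried the same modified Xist: a doxycycline-inducible TetOn promoter in place of the endogenous one on the 129S allele, and a Bgl stem-loop at the Xist 3' end. Doxycycline was given at 1.0 to 1.5 µg/mL. WT, the line without a further change, was sampled at 0 h (no doxycycline, n = 2), 3 h (n = 2) and 24 h (n = 2). SpenKO, named SpenRRM in the series text, was sampled at 0 h (n = 2), 3 h (n = 1) and 24 h (n = 2). SPOCmut, with a mutated SPEN SPOC domain, was sampled at 0 h and 24 h in 3 clones, C10, C2 and G1. CIZ1 KO was sampled at 0 h and 24 h (n = 2 each), and WT and CIZ1 KO also as neural precursor cells (NPC) at day 30 (n = 1 each). For the lines other than SPOCmut the labels name no separate clones, so genotype and line cannot be told apart. They name no separate cultures for the replicates either, so the spread behind the p-values is that of these libraries and may be purely technical.

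Each value is the share of allele-assigned chromatin-associated RNA reads of a gene that came from the 129S X, on a scale from 0 to 1. Chromatin-associated RNA is rich in transcripts still being made. A ratio of 0.5 means equal RNA from both X chromosomes, and a fall means a smaller share from the X that carries the inducible Xist. Such a fall could come from less 129S RNA or from more Cast RNA, and from fewer cells or from less RNA per cell. The ratios cannot separate these. Xist itself had a ratio of 0.933 to 0.999 in all 23 libraries. The median X gene lay between 0.504 and 0.523 in the libraries at 0 h. Depth is unknown because no read counts came with the ratios. The tables hold no expression levels, so neither the ES cell or NPC identity nor the knockouts were checked, and reads from the feeder fibroblasts of the cultures were not separated.

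Mageb16 (ENSMUSG00000046942, chromosome X, 79623231 to 79671435, minus strand, mm10) is a protein-coding gene of 48.2 kb that lies 23.8 Mb from Xist. Pnma5 (ENSMUSG00000050424, 73033981 to 73037103, minus strand) spans 3.12 kb. Xlr3a (ENSMUSG00000057836, 73086293 to 73097095, minus strand) lies 52.3 kb from Pnma5 by their start coordinates, and both are about 30.4 Mb from Xist. The promoter windows of the 3 genes in RefSeq (GRCm38.p6), 300 bases that run 5' to 3' across the gene start, show what these 3 share in sequence and what they do not. A link between these letters and the early fall was not tested. Capitals in the first pair mark the octamer ATGCAAAT or its reverse complement ATTTGCAT, the motif known to be bound by POU factors such as OCT4.
Mageb16, chrX:79671386-79671685, minus strand: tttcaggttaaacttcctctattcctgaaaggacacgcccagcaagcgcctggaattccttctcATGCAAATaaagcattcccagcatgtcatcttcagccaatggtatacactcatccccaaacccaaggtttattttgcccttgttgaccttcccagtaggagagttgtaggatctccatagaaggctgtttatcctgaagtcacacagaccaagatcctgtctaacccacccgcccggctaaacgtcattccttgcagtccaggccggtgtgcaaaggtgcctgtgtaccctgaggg
Pnma5, chrX:73037054-73037353, minus strand: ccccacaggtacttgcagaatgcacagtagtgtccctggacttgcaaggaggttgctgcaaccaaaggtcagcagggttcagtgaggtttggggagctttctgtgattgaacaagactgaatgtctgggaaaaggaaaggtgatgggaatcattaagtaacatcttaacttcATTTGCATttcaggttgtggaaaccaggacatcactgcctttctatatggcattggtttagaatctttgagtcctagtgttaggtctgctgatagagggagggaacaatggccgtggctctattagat

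The octamer, searched on both strands after these windows had been read, occurred once in the Mageb16 window and once in the Pnma5 window, and did not occur in that of Xlr3a. It was present in 1.74% of all 32851 RefSeq promoter windows and in 2.84% of the 211 windows of genes in the SPEN table. The CCAAT box (CCAAT or ATTGG) occurred once in Mageb16, once in Pnma5 and 4 times in Xlr3a, against a share of 51.2% of the SPEN table's windows with at least 1. The windows held 6 CpG in Mageb16, 1 in Pnma5 and 5 in Xlr3a. The median window of the SPEN table held 16, and 14.2% of its windows held 6 or fewer. Over all RefSeq windows the median was 7, and 47.9% held 6 or fewer. These matches describe the letters only.

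Xlr3a has 2 close relatives in the SPEN table, Xlr3b and Xlr3c, and their windows are printed beside its own. At 3 h in WT Xlr3c changed by -0.111 and Xlr3b by 0.000677, against -0.162 for Xlr3a. Capitals mark a run of 58 bases that is identical in all 3.
Xlr3a, chrX:73097046-73097345, minus strand: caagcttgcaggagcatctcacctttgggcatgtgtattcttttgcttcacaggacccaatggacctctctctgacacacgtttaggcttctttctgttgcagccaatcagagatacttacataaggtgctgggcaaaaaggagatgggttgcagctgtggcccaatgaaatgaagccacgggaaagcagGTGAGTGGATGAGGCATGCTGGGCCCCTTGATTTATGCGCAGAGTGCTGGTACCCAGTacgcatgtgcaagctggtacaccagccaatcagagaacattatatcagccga
Xlr3b, chrX:73191929-73192228, plus strand: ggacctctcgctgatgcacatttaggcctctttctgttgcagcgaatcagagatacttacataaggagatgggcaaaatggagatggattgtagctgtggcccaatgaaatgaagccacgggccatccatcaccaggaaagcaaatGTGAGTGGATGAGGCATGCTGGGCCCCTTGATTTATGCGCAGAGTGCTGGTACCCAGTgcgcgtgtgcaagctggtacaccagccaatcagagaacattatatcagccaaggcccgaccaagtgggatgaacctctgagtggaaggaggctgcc
Xlr3c, chrX:73265341-73265640, minus strand: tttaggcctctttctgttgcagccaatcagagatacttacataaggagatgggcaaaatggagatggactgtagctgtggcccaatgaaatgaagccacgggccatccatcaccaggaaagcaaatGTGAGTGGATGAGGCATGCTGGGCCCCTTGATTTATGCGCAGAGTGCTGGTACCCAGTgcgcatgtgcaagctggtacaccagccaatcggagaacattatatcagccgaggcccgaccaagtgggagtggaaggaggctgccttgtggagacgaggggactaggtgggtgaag

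Members of such families share reads. Of the 81-base words of the annotated transcripts, 81 bases being the length of 1 read, 54.4% of those of Mageb16 also occur in the processed pseudogene Mageb16-ps2 on chromosome 6 (60769967 to 60771059). For Xlr3a 30.8% occur in another gene, with 26.1% in Xlr3b and 9.98% in Xlr3c. For Pnma5 20.2% occur in its neighbour Pnma3, which is not in either table. These shares cover exons only, while chromatin RNA also holds introns. How the authors placed reads that fit several copies is not given in the sources used here, so the ratios of the 3 genes are uncertain to that extent. The pooled SD between replicates was 0.0165 for Pnma5, 0.0201 for Mageb16 and 0.0292 for Xlr3a, against a median of 0.0278 over 270 genes. Agreement between replicates does not bear on how reads of near copies were placed.

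At 0 h all 3 genes already had more reads assigned to the 129S X than to the Cast X. Several Xlr relatives did so too, with WT means of 0.774 for Xlr4c, 0.756 for Xlr4a, 0.643 for Xlr3b and 0.607 for Xlr4b. Xlr3c and Xlr5a were near equality, at 0.499 and 0.509. A bias in how reads were assigned to the alleles was not tested. Mageb16 had ratios of 0.855 and 0.821 in WT, 0.841 and 0.847 in SpenKO, 0.859, 0.854 and 0.871 in SPOCmut (C10, C2 and G1 in this order throughout), and 0.870 and 0.858 in CIZ1 KO. It was the gene with the 6th highest group mean of 270 in WT and in SpenKO, and the 4th highest of 254 in CIZ1 KO. At the WT mean of 0.838 there were 5.16 reads from 129S for each read from Cast.

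Pnma5 had untreated ratios of 0.649 and 0.624 in WT, 0.625 and 0.624 in SpenKO, 0.625, 0.644 and 0.636 in SPOCmut, and 0.636 and 0.651 in CIZ1 KO. Its group means at 0 h ran from 0.624 in SpenKO to 0.643 in CIZ1 KO, and the lines were not compared by a test at 0 h. Xlr3a had 0.644 and 0.585 in WT, 0.580 and 0.523 in SpenKO, and 0.655, 0.628 and 0.699 in SPOCmut. The mean of Xlr3a at 0 h was 0.551 in SpenKO, 0.614 in WT and 0.661 in SPOCmut, a gap that was not tested. This mean ranked 23rd highest of 270 in WT and 72nd in SpenKO.

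**Figure D1:**
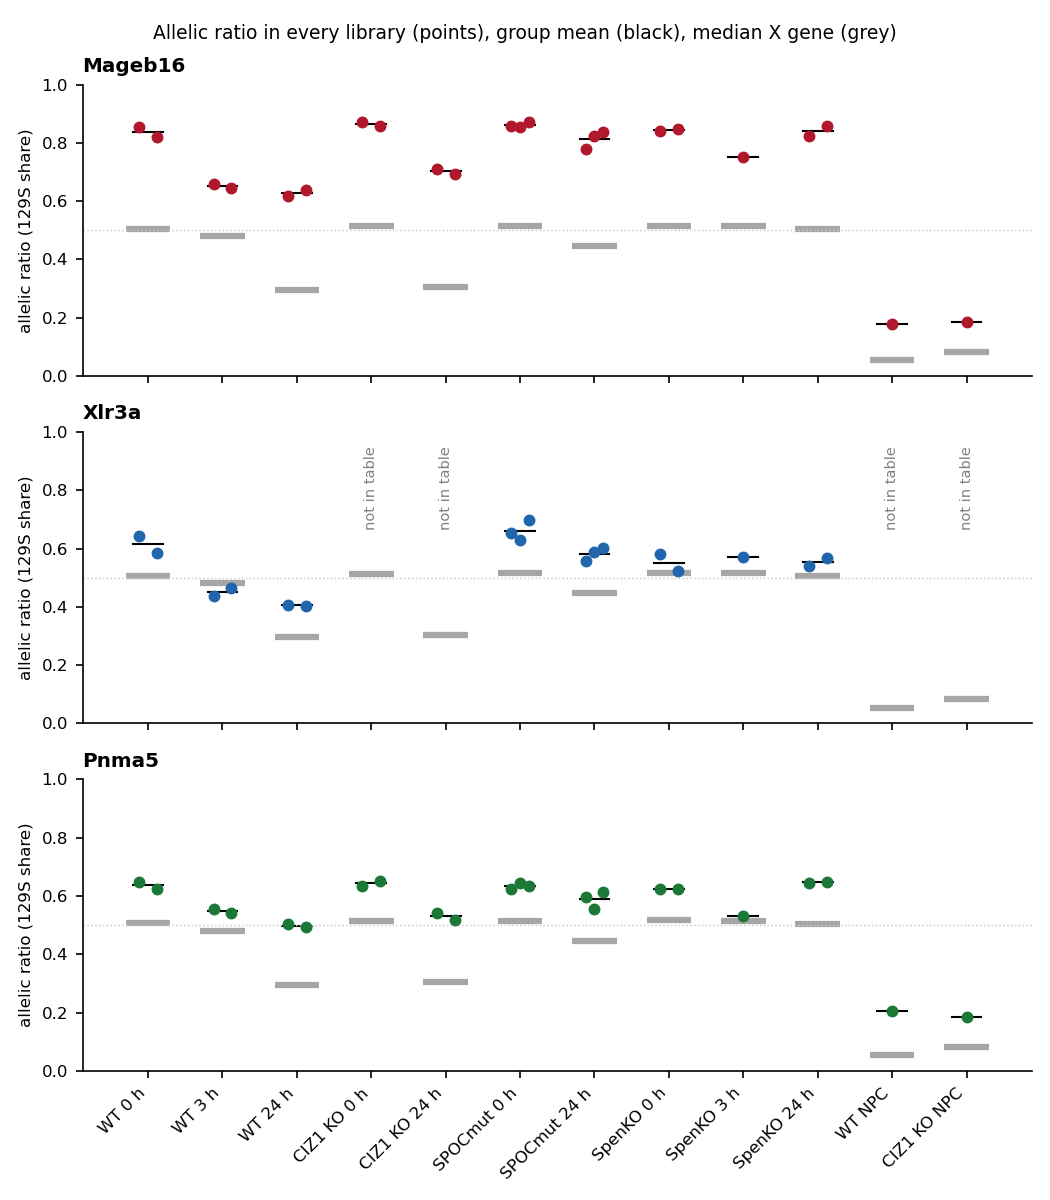
Allelic ratio (y axis, 129S share of reads, 0 to 1) of Mageb16, Xlr3a and Pnma5 in each library (points), by group, with the group mean as a black line and the median X gene of that group as a grey bar. Mageb16 stands highest at 0 h, all 3 genes are lower at 3 h and 24 h in WT, and in SpenKO at 24 h they are near their level of 0 h. In the single SpenKO library at 3 h Mageb16 and Pnma5 lie below both untreated SpenKO libraries, and Xlr3a lies between them.

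In WT cells, the contrast by which the genes were chosen, most of the change was already there at 3 h. Mageb16 had ratios of 0.658 and 0.646 at 3 h and of 0.618 and 0.639 at 24 h. Xlr3a had 0.439 and 0.465 at 3 h and 0.408 and 0.404 at 24 h. Pnma5 had 0.554 and 0.542 at 3 h and 0.503 and 0.494 at 24 h. For each gene both libraries at 3 h lay below both at 0 h, as for 37% of all 270 genes, and both at 24 h lay below both at 3 h, as for 91.1%.

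The means at 3 h were lower than at 0 h by 0.186 for Mageb16, 0.162 for Xlr3a and 0.0882 for Pnma5, while the median X gene changed by -0.0205. Of 270 genes, 17% fell at 3 h by an adjusted p under 0.05 in limma, a share that is given as background only, and the 3 genes had the 5th, 11th and 41st most negative changes. At 24 h they were lower than at 0 h by 0.209, 0.208 and 0.138, where the median gene changed by -0.197 and 88.9% of genes fell. From 3 h to 24 h the further changes were -0.0234 for Mageb16, -0.0456 for Xlr3a and -0.0497 for Pnma5, against a median of -0.178 and 85.6% of genes called lower. Mageb16 had thus reached 88.8% of its 24 h fall at 3 h, Xlr3a 78.1% and Pnma5 63.9%. Over the 235 genes that fell by more than 0.1 at 24 h the median share was 12.3%, and the 3 genes ranked 4th, 6th and 11th. These contrasts share their libraries and carry no test here.

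On the scale of odds, the 129S reads for each Cast read, Mageb16 stood at 5.16 at 0 h, 1.87 at 3 h and 1.69 at 24 h in WT. For Xlr3a the odds were 1.59, 0.824 and 0.684, and for Pnma5 1.75, 1.21 and 0.994. Of the 3 genes Mageb16 kept more RNA from the 129S X than from the Cast X in every WT ES library, Xlr3a had turned to the Cast side by 3 h, and Pnma5 was near equality at 24 h.

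**Figure D2:**
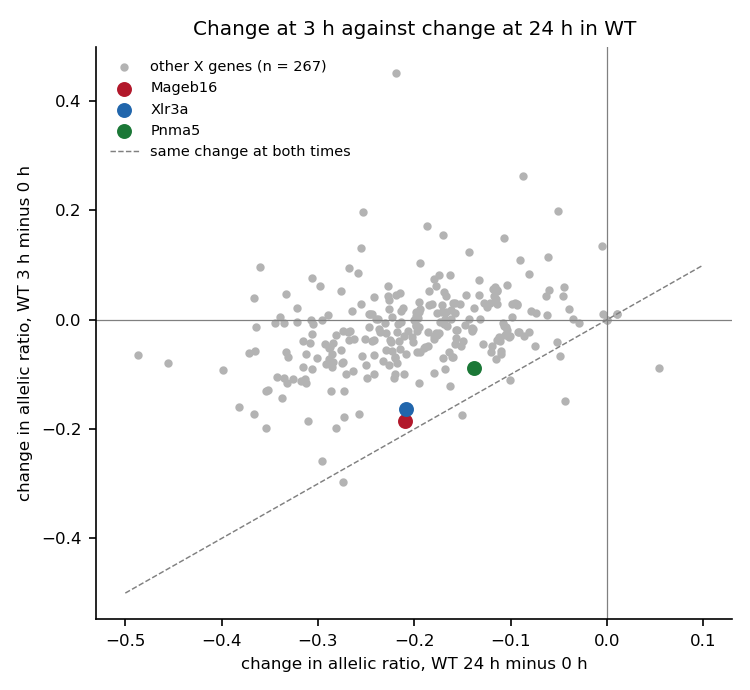
Change in allelic ratio of each of the 270 X genes in WT, at 24 h (x axis) and at 3 h (y axis), both against 0 h and both from group means, with the same 0 h libraries in each axis. Points on the dashed line had the same change at both times, and Mageb16, Xlr3a and Pnma5 lie close to it, while most grey points lie above.

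The loss of SPEN function was examined first at 24 h. In SpenKO Mageb16 had ratios of 0.822 and 0.859 at 24 h, Xlr3a 0.539 and 0.569, and Pnma5 0.645 and 0.649. For Mageb16 and Xlr3a these overlapped the untreated SpenKO libraries, and both Pnma5 libraries lay above both untreated ones. Of 270 genes 8.89% were separated upwards in this way. None of the 3 genes passed the test of 24 h against 0 h, in which limma called 0.741% of genes lower and 0% higher (18 and 1 genes at an unadjusted p under 0.05). The changes were 0.0228 for Pnma5 (95% interval -0.0149 to 0.0606, adjusted p = 0.831), 0.00291 for Xlr3a (-0.0592 to 0.0650, adjusted p = 0.989) and -0.00393 for Mageb16 (-0.0483 to 0.0405, adjusted p = 0.989). The signs for Xlr3a and Mageb16 changed when single libraries were left out, and that of Mageb16 also with libraries centred on their medians. In WT the falls from 0 h to 24 h were 0.209 for Mageb16, 0.208 for Xlr3a and 0.138 for Pnma5. These WT values share their 0 h libraries with the contrast that chose the genes. The difference in response between SpenKO and WT was therefore not tested.

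Against WT at 24 h, all 3 genes were higher in SpenKO, with every SpenKO library above both WT libraries, as were 88.1% of all genes by the test and 93.7% by separation. Mageb16 was higher by 0.212 ± 0.0201 (SE, adjusted p = 2.53e-06), Pnma5 by 0.148 ± 0.0171 (adjusted p = 1.07e-05) and Xlr3a by 0.148 ± 0.0281 (adjusted p = 0.000483). The median X gene was higher by 0.195. With each library centred on its own median, Pnma5 changed sign to -0.0577 and Xlr3a to -0.0583, and Mageb16 stood at 0.00551, with a call for Pnma5 and none for the other two. In odds, Mageb16 in SpenKO was 3.13 times WT, Pnma5 1.84 times and Xlr3a 1.82 times, where the median gene was 2.38 times.

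At 3 h the single SpenKO library gave 0.752 for Mageb16 and 0.531 for Pnma5, both below both untreated SpenKO libraries, and 0.572 for Xlr3a, which lay between them. Separation downwards was seen in 38.9% of genes against this 1 library. Assuming that it varies like the other groups, the change was -0.0928 ± 0.0209 for Pnma5 (unadjusted p = 0.0011, limma, adjusted p = 0.0928) and -0.0926 ± 0.0246 for Mageb16 (unadjusted p = 0.00336, adjusted p = 0.13). Neither passed the adjusted threshold, at which 0.37% of genes were called lower. These were the 14th and 15th most negative of 270 changes, where the median gene changed by -0.000564. Xlr3a changed by 0.0213 ± 0.0344 (adjusted p = 0.897), from -0.0548 to 0.0973 in its 95% interval. The changes in WT at 3 h were -0.0882 for Pnma5, -0.186 for Mageb16 and -0.162 for Xlr3a. At 24 h the SpenKO libraries gave 0.822 and 0.859 for Mageb16 and 0.645 and 0.649 for Pnma5. Their gap to the SpenKO library at 3 h was not tested, and its share over all genes was not counted. The median X gene of this single library was at 0.515, next to 0.516 in SpenKO at 0 h.

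With the SPOC domain mutated, the 3 genes were lower at 24 h than at 0 h in every clone. The falls were smaller than the differences of the WT means, a comparison that was not tested. Mageb16 had ratios of 0.779, 0.823 and 0.838 at 24 h, Xlr3a 0.559, 0.587 and 0.602, and Pnma5 0.598, 0.555 and 0.614. No library at 24 h reached any at 0 h, as for 60% of all genes. Within clones Mageb16 fell by 0.0797 in C10, 0.0313 in C2 and 0.0323 in G1. Xlr3a fell by 0.0960, 0.0413 and 0.0971, and Pnma5 by 0.0268, 0.0894 and 0.0220. The clone with the largest fall was therefore C10 for Mageb16, C2 for Pnma5 and, by a small margin over C10, G1 for Xlr3a.

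The test of 24 h against 0 h in SPOCmut called all 3 genes lower, where it called 49.6% of the 270 genes lower and 0% higher. Xlr3a changed by -0.0781 ± 0.0229 (adjusted p = 0.0148), Mageb16 by -0.0478 ± 0.0164 (adjusted p = 0.0314) and Pnma5 by -0.0460 ± 0.0139 (adjusted p = 0.0171). The median gene changed by -0.0658. After centring on the library medians Mageb16 and Pnma5 turned to 0.0237 and 0.0254 and Xlr3a stood at -0.00669, none of them called, so none of the 3 was shown to fall more than the median gene. In odds, Mageb16 was divided by 1.41, Xlr3a by 1.40 and Pnma5 by 1.21, and the median gene stood at 0.750 of its level at 0 h.

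These calls rested on few libraries. The call of Mageb16 was lost without 0 h of C10 (adjusted p = 0.0595), C2 (0.0553) or G1 (0.0903), and without 24 h of C10 (0.123, with a change of -0.0306). That of Xlr3a was lost without 24 h of C10 (adjusted p = 0.0580) or 0 h of G1 (0.0610). That of Pnma5 was lost without 0 h of C2 (adjusted p = 0.0638), and its change shrank to -0.0291 without 24 h of C2 (adjusted p = 0.0493). With the clone as a block all 3 were still called, at adjusted p = 0.0311 for Xlr3a, 0.0375 for Pnma5 and 0.0416 for Mageb16.

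At 24 h all 3 genes were higher in SPOCmut than in WT, with no overlap of libraries (84.4% of all genes) and with 78.9% of all genes called higher. Mageb16 was higher by 0.185 ± 0.0183 (adjusted p = 5.18e-06), Xlr3a by 0.176 ± 0.0256 (adjusted p = 9.31e-05) and Pnma5 by 0.0903 ± 0.0156 (adjusted p = 0.000335). The median gene was higher by 0.133. After centring, Mageb16 and Xlr3a stood at 0.0370 and 0.0285 without a call, and Pnma5 turned to -0.0575 with a call (adjusted p = 0.0245 in limma). Centring alone reversed Pnma5, which kept its call as higher in 10 of 11 alternatives.

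Set against SpenKO at 24 h, Pnma5 was the one of the 3 called different in SPOCmut on the uncentred ratios, where 40.7% of genes were called lower and 1.11% higher. All 3 SPOCmut libraries of Pnma5 lay below both SpenKO libraries, as for 57% of genes, and the difference was -0.0582 ± 0.0156 (adjusted p = 0.0126). The call was lost without either SpenKO library at 24 h (adjusted p = 0.0553 without replicate 1 and 0.0662 without replicate 2), and after centring the difference was 0.000178. Mageb16 differed by -0.0269 (95% interval -0.0674 to 0.0137, adjusted p = 0.281) and Xlr3a by 0.0284 (-0.0282 to 0.0851, adjusted p = 0.433), both with overlapping libraries. After centring the difference of Xlr3a was 0.0868, with a call, and that of Mageb16 was 0.0315, without one.

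The response to 24 h of doxycycline itself was compared between the lines as an interaction. The response of Pnma5 in SPOCmut minus that in SpenKO was -0.0689 ± 0.0220 (adjusted p = 0.0445), in a test that called 23% of genes lower and 0% higher. This call was lost in 12 of 16 alternatives, among them each fit without a SpenKO library (adjusted p = 0.0990 to 0.118). The difference was -0.0810 ± 0.0362 for Xlr3a (adjusted p = 0.132) and -0.0438 ± 0.0259 for Mageb16 (adjusted p = 0.238). Their 95% intervals ran from -0.161 to -0.000865 and from -0.101 to 0.0135, with a median of -0.0571 over all genes.

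**Figure D3:**
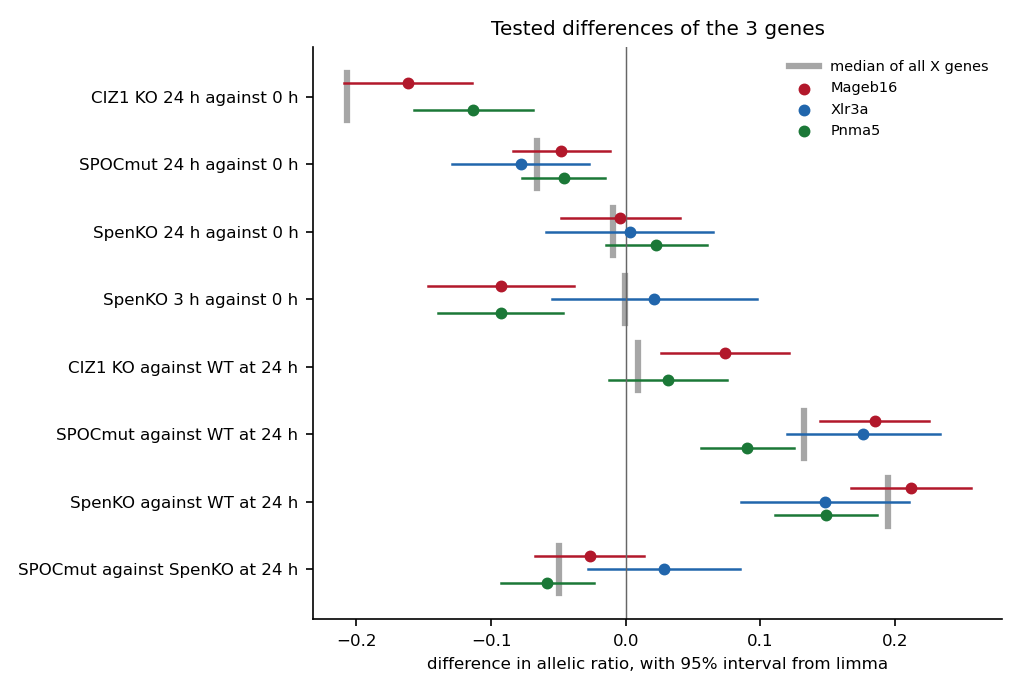
Tested differences in allelic ratio (x axis) with their 95% intervals from limma for Mageb16, Xlr3a and Pnma5, with the median of all X genes of each comparison as a grey bar. The intervals of the 3 genes lie above 0 in SpenKO and SPOCmut against WT at 24 h, below 0 in SPOCmut at 24 h against 0 h, and include 0 in SpenKO at 24 h against 0 h.

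Without CIZ1 the fall of both measured genes was present at 24 h. Mageb16 had ratios of 0.712 and 0.693 and Pnma5 of 0.542 and 0.518 in CIZ1 KO at 24 h, all below both untreated libraries, as for 91.7% of the 254 genes. Mageb16 changed by -0.161 ± 0.0192 (adjusted p = 0.000512) and Pnma5 by -0.113 ± 0.0178 (adjusted p = 0.00154), in a test that called 85% of genes lower. The median gene changed by -0.207, and after centring the signs turned to 0.0467 for Mageb16, without a call, and to 0.0951 for Pnma5, which was then called higher. In odds Mageb16 was divided by 2.69 and Pnma5 by 1.60, while the median gene stood at 0.406 of its level at 0 h. On that scale the fall of Mageb16 was about that of the median gene, and that of Pnma5 was smaller.

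Against WT at 24 h, both libraries of CIZ1 KO lay above both of WT for each gene, as for 26.8% of genes. Mageb16 was higher by 0.0738 (95% interval 0.0264 to 0.121, unadjusted p = 0.00908, limma) and Pnma5 by 0.0315 (-0.0124 to 0.0754). Neither passed after adjustment (adjusted p = 0.384 and 0.655), and limma called 0% of the 254 genes in either direction (before adjustment, 4 genes were below 0.05 on the lower side and 21 on the higher side).

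In NPC at day 30 both genes came mostly from the Cast X. Mageb16 had a ratio of 0.180 in WT and 0.184 in CIZ1 KO, and Pnma5 0.205 in WT and 0.184 in CIZ1 KO, each in 1 library. The WT and CIZ1 KO values lay close together for both genes. They were above the median gene of each library, at 0.0546 in WT and 0.0830 in CIZ1 KO, and ranked 55th and 50th highest of 254 for Mageb16 and 39th and 49th for Pnma5. The sources used here do not say if the NPC had doxycycline. With 1 library per group these values have no test.

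The early change of Xlr3a was set beside the other Xlr genes, since 8 genes from Pnma5 to Xlr3c lie within 231 kb. Xlr3b, whose transcripts share most with Xlr3a, changed by 0.000677 at 3 h in WT and by -0.131 at 24 h. Xlr3c changed by -0.111 and -0.101, Xlr4a by 0.0389 and -0.115, and Xlr4c by 0.0519 and -0.184. Xlr5a changed by -0.149 and -0.0433, and Xlr4b by -0.0180 and -0.104. Xlr5a and Xlr4b had replicates far apart, with pooled SDs of 0.126 and 0.0805. Those of Xlr4a, Xlr3c, Xlr4c and Xlr3b were 0.0752, 0.0702, 0.0570 and 0.0394, also above the median of 0.0278 over 270 genes. At 3 h both libraries lay below both untreated ones for Xlr3a and Xlr3c, as for 37% of all genes. The 3 h libraries overlapped the untreated ones for Xlr3b, Xlr4a, Xlr4b and Xlr5a, and lay above them for Xlr4c. The share of all genes separated upwards was not counted. For Xlr3c the margin was small, with the higher 3 h library at 0.452 and the lower untreated one at 0.454. Xlr3a, chosen for its early fall, was thus lower at 3 h while its nearest copy, Xlr3b, was not. The part that reads shared by both copies have in this was not tested.

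**Figure D4:**
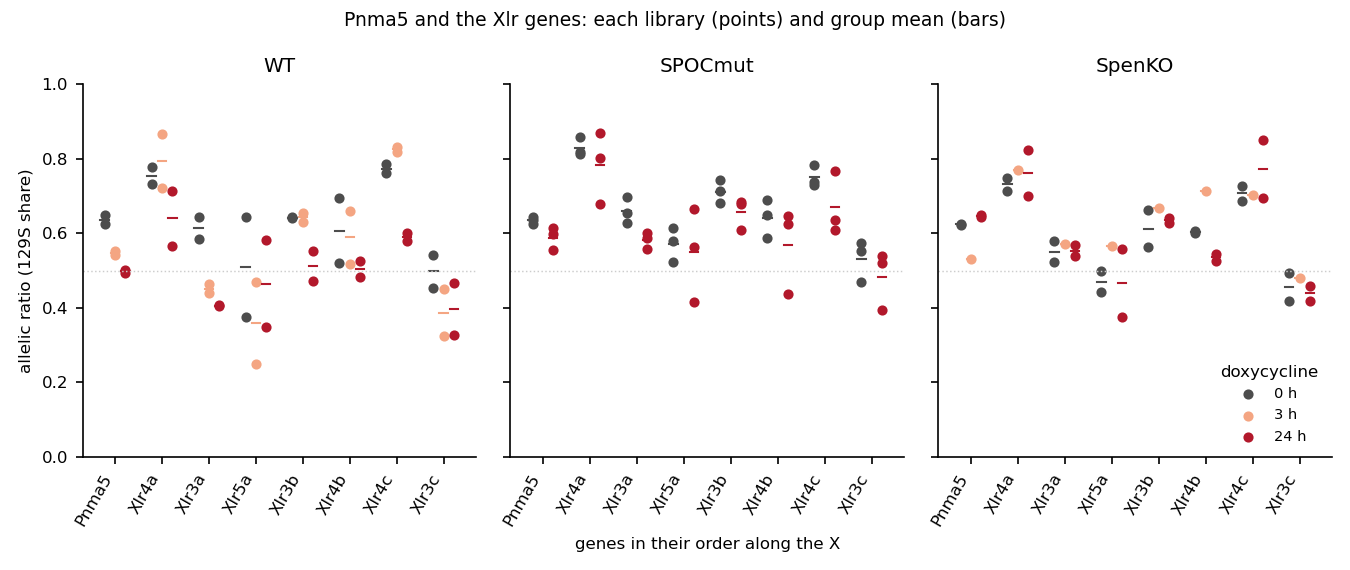
Allelic ratio (y axis, 129S share) of Pnma5 and 7 Xlr genes in their order along the X, in WT, SPOCmut and SpenKO, with points for libraries and short bars for group means. Pnma5 and Xlr3a are lower at 3 h than at 0 h in both WT libraries, and Xlr5a and Xlr4b spread more widely within groups than these do.

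In SPOCmut at 24 h against 0 h, Xlr3a was the member of the 7 Xlr genes that was called lower, where 49.6% of all genes were. The other 6 did not pass, with changes from -0.0803 for Xlr4c to -0.0236 for Xlr5a. Their standard errors were larger, from 0.0304 for Xlr3b to 0.0951 for Xlr5a. The median of the 7 was -0.0543, against -0.0658 over all genes. In SpenKO against WT at 24 h 3 of 7 were higher, against 88.1% of all genes: Xlr3a, Xlr3b by 0.124 ± 0.0372 (adjusted p = 0.00909) and Xlr4c by 0.183 ± 0.0532 (adjusted p = 0.00750). In SPOCmut against WT at 24 h 2 of 7 were higher, against 78.9% of all genes, Xlr3a and Xlr3b, the latter by 0.147 ± 0.0339 (adjusted p = 0.00248). That Xlr3a differs from its relatives was not tested.

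A list of 17 X-linked genes in the SPEN table was made from symbols of germline, testis and placenta genes and families. Whole families, such as Mage, entered by name, and expression in those tissues was not checked for each gene. Of the 17, 8 fell in SPOCmut at 24 h, the 3 genes and 5 of the other 14, a share near the 49.6% of all genes. The median change of those 14 was -0.0635, next to -0.0658 over all genes. The list's changes ran from -0.215 ± 0.0188 for Tex11 (adjusted p = 5.77e-06), a gene needed for crossing over in meiosis, to that of Xlr5a. Maged1, the other MAGE gene, changed by -0.153 ± 0.0282 (adjusted p = 0.00106), and in WT by -0.0286 at 3 h and -0.281 at 24 h. Of the fall of Maged1 in WT 10.2% was there at 3 h. The share of 88.8% for Mageb16 follows from its choice by an early fall, so the gap between these genes was not tested. In SpenKO against WT at 24 h 13 of 17 were higher (88.1% of all genes), and in SPOCmut against WT 11 of 17 (78.9%). In CIZ1 KO at 24 h against 0 h 9 of 10 in the CIZ1 table were lower (85%). Maged1 was lower in CIZ1 KO by 0.304 ± 0.0214 (adjusted p = 0.000125). Of genes derived from gag, Pnma5 was the one present in the tables.

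Neighbouring genes were described to see how local the changes were. Mageb16 has 2 neighbours in the table that start within 0.5 Mb: Gm8787 changed by -0.0248 at 3 h and -0.229 at 24 h in WT, and Gm7173 by -0.0893 and -0.306. Around Pnma5 and Xlr3a, the centrosomal gene Cetn2 changed by -0.174 at 3 h, the sterol enzyme gene Nsdhl by -0.0904 and Zfp185 by -0.0745, while Zfp275 changed by -0.00785. At 24 h in WT the changes were -0.150, -0.168, -0.233 and -0.170 in this order. Cetn2 varied widely, with a pooled SD of 0.0941 and WT libraries at 0.258 and 0.500 at 24 h. Haus7 and Atp2b3 changed by -0.0361 and -0.0619 at 3 h in WT. Over all 14 neighbours, the other Xlr genes among them, the changes at 3 h ran from -0.174 to 0.0519. Their median was -0.0490, against -0.0205 over all genes. In SPOCmut at 24 h against 0 h, 6 of the 14 fell, with a median change of -0.0703, against 49.6% and -0.0658 over all genes.

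By likeness of pattern, the Pearson correlation of ratios over the 17 libraries of the SPEN table, Mageb16 was closest to Ogt (r = 0.937), Gyk (0.914) and Chic1 (0.914). Xlr3a was closest to Kis2 (0.909), Mageb16 (0.892) and Gyk (0.875). Pnma5 was closest to Mageb16 (0.889), Gyk (0.887) and Ercc6l (0.872). Xlr3a and Pnma5, although neighbours on the X, correlated less, at 0.754. The median over all genes was 0.595 for Mageb16, 0.575 for Xlr3a and 0.640 for Pnma5. These correlations describe groups of treated and untreated libraries that move most X genes together, and they include the WT libraries by which the genes were chosen.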

How the data were processed

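Chromatin-associated RNA was measured in 27 samples. The 23 ES cell and NPC libraries with an inducible Xist on the X were analysed, and the 4 samples with an Xist transgene on chromosome 15 were not used. Per the labels' protocols, a stranded total RNA kit and paired reads of 81 bases were used. The authors deposited 1 allelic ratio for each gene in each library, a fraction between 0 and 1. The submitters' processing notes name mm10, Bowtie2 2.3.2, STAR 2.4.2a, and, with no version, edgeR, bedtools, SAMtools and featureCounts, none with a role. The numerator allele, the gene filters and the handling of reads that fit several places: not given in the sources used here. The ratio was read as the 129S share because Xist, inducible on 129S, lies near 1. Columns marked with doxycycline and no time were taken as 24 h. Depth is unknown, so precision rests on the spread between libraries.

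Groups came from the labels. Raw ratios were fitted with limma 3.58.1 in R 4.3.3, all libraries of a table in 1 fit (270 genes in 17 libraries, 254 genes in 10), with no replicate block. P-values were adjusted by Benjamini-Hochberg over each table, with a threshold of 0.05. The fit was tested on simulated data. The tables share 4 libraries, with identical values. At most 1.11% of values were equal between replicates, and all were kept as separate libraries. Alternatives were the logit of the ratio, only the compared libraries, robust variance, Benjamini-Yekutieli, centred libraries, each library left out, and a replicate block. The 3 SPOCmut pairs are clones of that name. Their 0 h and 24 h libraries had correlations of deviations of -0.0170 in C10, -0.113 in C2 and 0.148 in G1. Named beside the 3 genes are same-family genes, the list genes with the largest and smallest SPOCmut change, neighbours within 0.5 Mb, and the 3 most alike genes each. The 3 genes and all lists were chosen with earlier results of these data known. Coordinates are from GENCODE M21 (mm10), sequences from RefSeq (GRCm38.p6).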

Additional observations from a re-analysis of the deposited data

Results flagged for a closer look

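The response of Pnma5 to 24 h of doxycycline differed between SPOCmut and SpenKO by a test of the difference itself, the interaction in limma, at -0.0689 (adjusted p = 0.0445). The call was lost in 12 of 16 alternatives, among them the replicate block and centring of the libraries, where the difference was -0.00779. Pnma5 was also higher by 0.0228 in SpenKO at 24 h than at 0 h, with both treated libraries above both untreated ones, as for 8.89% of genes. At 3 h the single SpenKO library lay below both untreated ones, as for 38.9% of genes, with a change of -0.0928. At 24 h every treated library of WT, of SPOCmut and of CIZ1 KO lay below all untreated libraries of its line. So did 60% of all genes in SPOCmut and 91.7% in CIZ1 KO, and in WT 88.9% of genes were called lower. The difference in direction between SpenKO and WT or CIZ1 KO was not tested, and the change in SpenKO did not pass its own test (adjusted p = 0.831).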

How the results depend on the processing

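With each library centred on its median, which takes away the change common to X genes, genes called lower numbered 48 in SPOCmut at 24 h against 0 h (134 without centring), 36 in CIZ1 KO (216), 1 in SpenKO (2) and 34 in SPOCmut against SpenKO (110). Genes called higher numbered 44 in SpenKO against WT (238) and 33 in SPOCmut against WT (213), and the interaction called 11 (62). Under centring Mageb16 turned to 0.0237 in SPOCmut, 0.0467 in CIZ1 KO, 0.00639 in SpenKO at 24 h against 0 h, 0.0315 in SPOCmut against SpenKO and 0.0173 in the interaction. Pnma5 turned to 0.0254 in SPOCmut without a call, to 0.0951 in CIZ1 KO, -0.0577 in SpenKO against WT and -0.0575 in SPOCmut against WT, all 3 with a call in the new direction, and to 0.000178 in SPOCmut against SpenKO, and Xlr3a to -0.0583 in SpenKO against WT. Calls were lost under centring for Xlr3a in SPOCmut (-0.00669) and in SPOCmut against WT (0.0285), for Mageb16 in SpenKO (0.00551) and SPOCmut (0.0370) against WT, and for Pnma5 in the interaction (-0.00779). Xlr3a in SPOCmut against SpenKO gained a call at 0.0868.

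Benjamini-Yekutieli adjustment left 66 genes in SPOCmut against SpenKO, 34 in the interaction and 0 in SpenKO at 24 h against 0 h. It ended the calls in SPOCmut of Mageb16 (-0.0478), Xlr3a (-0.0781) and Pnma5 (-0.0460), and those of Pnma5 in SPOCmut against SpenKO (-0.0582) and in the interaction (-0.0689). With only the compared libraries, the calls of Mageb16 (-0.0478) and Pnma5 (-0.0460) in SPOCmut and of Pnma5 in SPOCmut against SpenKO (-0.0582) and in the interaction (-0.0689) were lost, and 0 genes were called in SpenKO at 3 h or 24 h against 0 h. The replicate block called 0 genes in SpenKO at 24 h and ended the call of Pnma5 in the interaction (-0.0689, adjusted p = 0.0847). It changed no other call of the 3 genes. Same-numbered libraries at 0 h and 24 h deviated together at 0.101 in WT and 0.112 in SpenKO and apart at -0.107 in CIZ1 KO, where crossed pairs, an alternative added after seeing the data, called 217 genes lower.

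With each library left out in turn, counts ranged from 115 to 134 in SPOCmut, 0 to 2 and 0 to 1 in SpenKO at 24 h and 3 h, 221 to 226 in SpenKO and 182 to 204 in SPOCmut against WT, 75 to 105 in SPOCmut against SpenKO, 193 to 205 in CIZ1 KO and 41 to 58 in the interaction, the lowest without SpenKO 24 h replicate 1. Changes in SPOCmut ranged from -0.0602 to -0.0306 for Mageb16, -0.0944 to -0.0589 for Xlr3a and -0.0585 to -0.0291 for Pnma5. In SpenKO at 24 h they ranged from -0.0224 to 0.0146 for Mageb16 and -0.0257 to 0.0315 for Xlr3a, and at 3 h from -0.00732 to 0.0499 for Xlr3a. Pnma5 ranged from -0.0706 to -0.0412 in SPOCmut against SpenKO and from -0.0813 to -0.0519 in the interaction. The logit and the robust variance kept every call of the 3 genes. Except where a setting's own construction shows it, the cause was not tested. Depth limits could not be given without read counts.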
